A study of Mus musculus with 15 samples.

Results

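Epiblast cells with no transcript found of *T*, *Mixl1* and *Mesp1*, genes of the primitive streak and early mesoderm, were described. They came from 10 mouse embryos between E6.0 and early E7.5, 8 controls and 2 *Mesp1* KO embryos. A cell was selected on its own counts, with at least 3 unique molecular identifiers (UMIs, 1 per captured RNA molecule) of *Pou5f1*, at least 1 UMI of at least 3 of *Utf1*, *Dnmt3b*, *Fgf5*, *Pim2*, *Sox2* and *Otx2*, and 0 UMIs of *T*, *Mixl1* and *Mesp1*. Of 23505 quality-controlled cells in these embryos, 5307 were selected (22.6%), 4451 of them in controls and 856 in *Mesp1* KO embryos. The whole series held 93701 such cells in 15 embryos. Since the cells were chosen by these 10 genes, the levels of those genes are descriptions and were not tested. *Eomes*, another gene of the streak, was not a criterion, and many of the selected cells held it, as described below.

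The epiblast is the epithelium of pluripotent cells from which the whole fetus arises. At these ages it is in the primed state: it keeps *Pou5f1* (OCT4), *Sox2* and *Nanog*, expresses *Fgf5*, *Otx2* and the DNA methyltransferase gene *Dnmt3b*, and receives Nodal, FGF, WNT and BMP signals. On its posterior side cells switch on *T* and *Mixl1* and leave through the primitive streak as mesoderm and endoderm, whereas cells that stay behind on the anterior side become ectoderm. *Mesp1*, a bHLH transcription factor of the early mesoderm, is expressed briefly in cells that leave the streak.

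The study compared *Mesp1* KO embryos with controls along the time course of early heart formation. Controls carried at least 1 wild-type *Mesp1* allele (Mesp1 Cre/+ or wild type), and KO embryos were Mesp1 Cre/Cre, with the Cre knock-in disrupting both alleles. Both genotypes came from C57BL/6J crosses that transmit the Rosa26R Ai14 lineage reporter and the Smarcd3-F6 enhancer driving eGFP, so that the Ai14 label marks cells in which Mesp1 Cre had acted. The early controls were 3 embryos at E6.0 (replicates 1 to 3), 1 at late E6.0 and 1 at E6.5, and the middle controls were 1 at late E6.5, 1 at E7.0 and 1 at early E7.5. The KO embryos were 1 at E6.5 (early) and 1 at E7.0 (middle). Whole embryos were dissociated and each library was taken as 1 embryo, so extra-embryonic cells were present in every suspension.

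The 10 libraries held between 13058356 and 172058203 UMIs, and their selected cells summed to between 1382480 and 37331989 UMIs, with a median of 21562 to 37501 UMIs per selected cell. Levels below are counts per 1000000 UMIs (CPM) of the summed selected cells of an embryo. Library names carry an experiment number, which was 6 for E6.0 replicates 1 and 2, 8 for E6.0 replicate 3, late E6.0 and both KO embryos, and 7 for E6.5 and all 3 middle controls. No KO embryo shared an experiment with a control of its own age, so genotype, age and experiment cannot be told apart in several comparisons below. E6.0 replicate 3 was the only embryo with *Xist* (251.6 CPM, against at most 0.723) and with no *Ddx3y*. Any pair of libraries shared at most 57 cell barcodes, and 95 selected cells carried a barcode found in another library of the same experiment.

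*Mesp1*, at chr7:79792241-79793788 on the minus strand (GENCODE vM21, mm10), was measured first in all quality-controlled cells. It had 0 UMIs in the E6.5 KO embryo and 1 UMI in the E7.0 KO embryo, of 46338517 and 40545716 UMIs in all. The 8 controls had between 904 and 16093 UMIs, or 49.4 to 193.8 CPM. The labels and the targeted gene matched in all 10 embryos. Because KO cells carry almost no *Mesp1* transcript, the *Mesp1* criterion could remove cells from controls only: 186 control cells and 0 KO cells failed the selection on *Mesp1* alone.

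The genes used by the selection changed with age in different ways (the plot of marker genes by embryo). *Pou5f1* was 2124, 1544 and 1557 CPM in the E6.0 controls, 1630 at late E6.0, 1527 at E6.5, 1508 at late E6.5, 1450 at E7.0 and 877 at early E7.5. The levels from late E6.0 to E7.0 lay close together, and early E7.5 was lowest. *Utf1*, a chromatin factor of pluripotent cells, went from 1533, 1071 and 999 CPM at E6.0 to 691 at E7.0 and 148 at early E7.5. *Fgf5*, the primed-state FGF ligand, went from 222, 182 and 128 CPM at E6.0 to 40 at E7.0 and 5.5 at early E7.5.

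**Figure D1:**
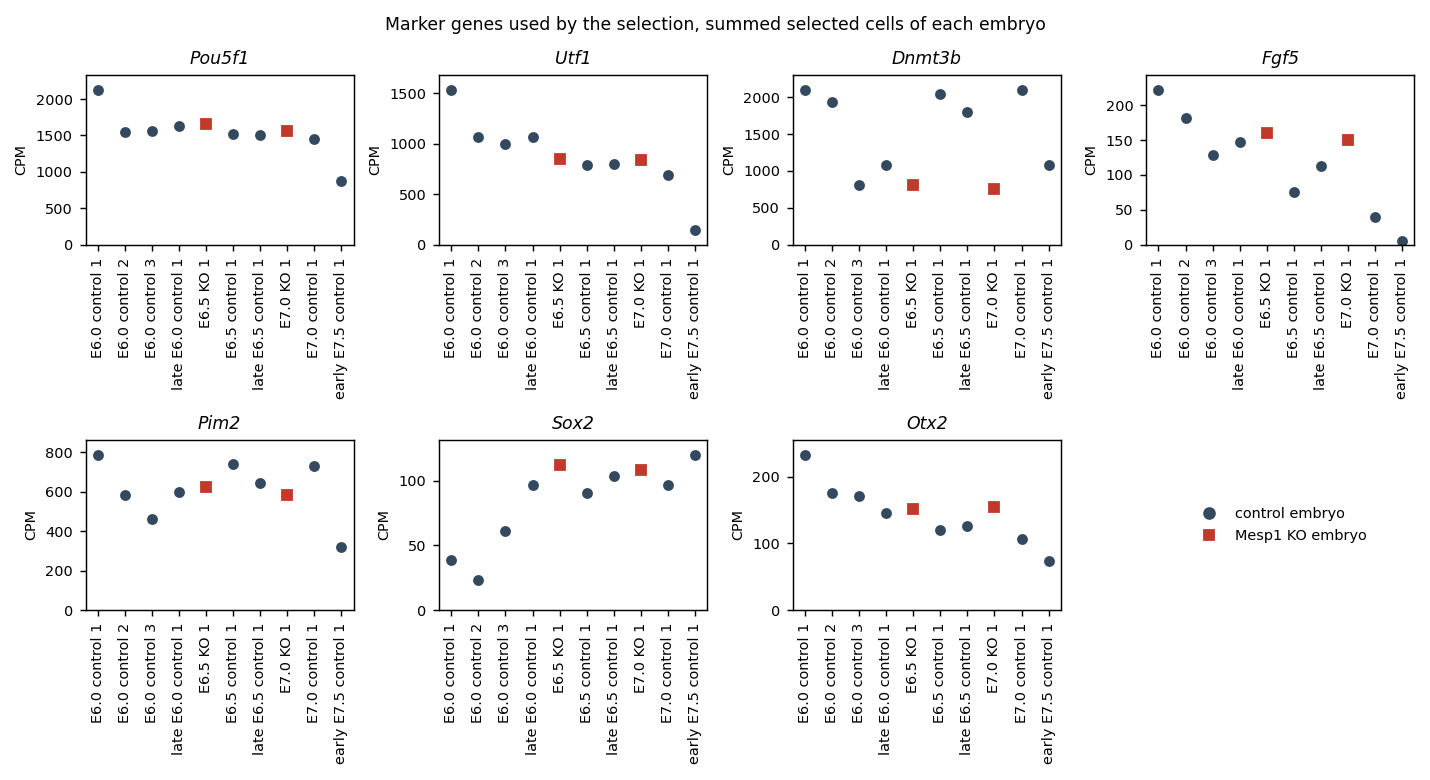
Levels of the 7 marker genes used by the selection, as CPM (vertical axes, from 0) of the summed selected cells in each embryo, in age order; dark circles are controls and red squares are *Mesp1* KO embryos. *Fgf5* and *Utf1* are lowest at early E7.5 (5.5 and 148 CPM), and the 4 embryos of experiment 8 are between 754 and 1086 CPM for *Dnmt3b*.

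*Sox2* went the other way, from 38, 23 and 61 CPM at E6.0 to 96.5 at E7.0 and 119.5 at early E7.5. *Otx2*, a factor of the anterior epiblast, had 232, 176 and 172 CPM at E6.0 and 74 at early E7.5. *Pim2*, a serine/threonine kinase, was between 460 and 784 CPM in the first 7 controls and 321 at early E7.5. *Dnmt3b* followed the experiment more closely than the age: it was 817 and 1086 CPM in the experiment 8 controls and 817 and 754 CPM in the KO embryos, and 1805 to 2098 CPM in the other controls apart from early E7.5 (1081 CPM). In the KO embryos *Pou5f1* was 1657 and 1562 CPM, *Utf1* 848 and 841, *Fgf5* 161 and 151, *Sox2* 112 and 108, and *Otx2* 152 and 155. The 2 KO embryos were thus close to each other in every marker, and for *Fgf5* both lay above the age-matched controls (76 CPM at E6.5 and 40 at E7.0) and within the range of the E6.0 controls.

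The thresholds cut through few cells for *Pou5f1* and through many for the streak genes. Of the selected cells, 60 had exactly 3 *Pou5f1* UMIs, and 69 cells with 2 would otherwise have been selected. Exactly 3 of the 6 markers were found in 638 selected cells, and 328 cells missed with 2. The cells that met every positive criterion but had a streak gene UMI were nearly as many as the members, 4524, of which 759 had a single streak UMI. Compared with the selected cells of the same embryo, these cells had more *Eomes* (a T-box factor of the streak) in 10 of 10 embryos, with a median ratio of 3.84, and less *Utf1* in 10 of 10, with a median ratio of 0.151. They are the neighbouring population, and a few of their values are given below only for comparison.

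The label was checked against markers of other cell types. Departures were found in cells with endoderm transcripts and, in ectoderm genes, at early E7.5. Of the 5307 selected cells, 4331 had no UMI of 6 endoderm and anterior mesendoderm genes (*Sox17*, *Foxa2*, *Cer1*, *Lhx1*, *Gsc* and *Gata6*), 68 had exactly 2, 38 had exactly 3, and 434 (8.18%) had 3 or more. This split was chosen after the values were seen, so it is described and not tested. *Foxa2* and *Sox17* are transcription factors of the definitive and visceral endoderm, and *Cer1* is a secreted antagonist of Nodal, BMP and WNT made by anterior endoderm.

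The share of selected cells with 3 or more endoderm UMIs was 20.4% in the E6.5 KO embryo (86 of 421, exact 95% binomial interval 16.7% to 24.6%) and 17.9% in the E7.0 KO embryo (78 of 435, 14.4% to 21.9%). In the controls it was 5.15%, 0% and 2.90% at E6.0, 4.32% at late E6.0, 7.79% at E6.5, 8.63% at late E6.5, 5.99% at E7.0 and 3.17% at early E7.5. Both KO embryos were above all 8 controls, and their intervals did not reach those of the age-matched controls, 6.199% to 9.645% at E6.5 and 4.81% to 7.35% at E7.0. The 0 of 46 cells at E6.0 replicate 2 had an upper limit of 7.71%. With every cell thinned to 10000 UMIs, the shares were 20.1% and 18.8% in the KO embryos and between 0% and 10.1% in the controls. Intervals and limits cover counting error only. Of the 434 cells, 29 were marked as doublets and 75 had 3 or more UMIs of 8 extra-embryonic genes. The *Mesp1* criterion alone removed 51 cells from the E6.5 control and 79 from the E7.0 control, and 0 from either KO embryo. Whether doublets, free RNA or that criterion had a part in the difference between genotypes was not tested.

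**Figure D2:**
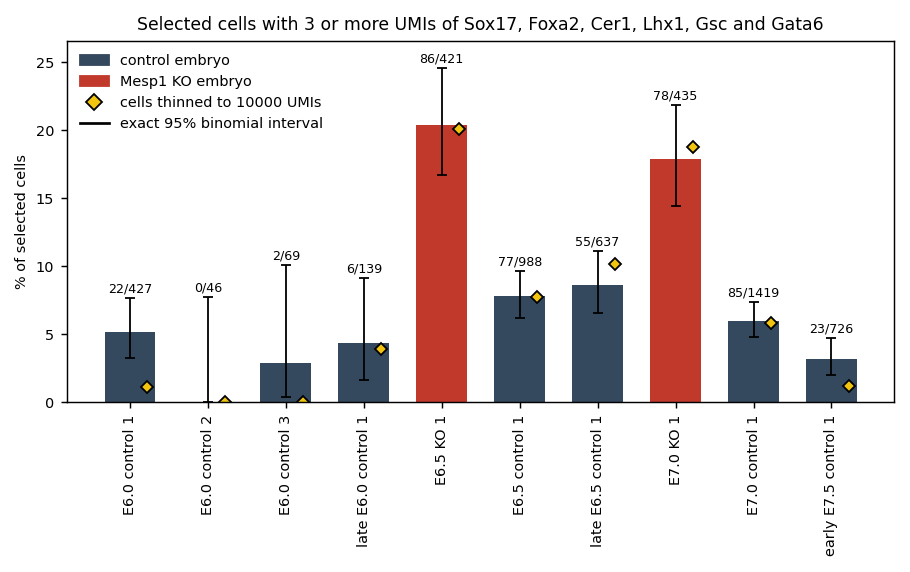
Share of selected cells (%, bars from 0) with 3 or more summed UMIs of *Sox17*, *Foxa2*, *Cer1*, *Lhx1*, *Gsc* and *Gata6* in each embryo in age order, with exact 95% binomial intervals and the number of cells; diamonds give the share after thinning cells to 10000 UMIs. The 2 *Mesp1* KO embryos are at 20.4% and 17.9%, and the controls are at 8.63% or less.

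These cells differed from the other selected cells also in genes that neither the selection nor the split used. *Krt8*, a simple-epithelium keratin, was higher in them in 9 of 9 embryos, with a median ratio of 17.3. *Cfc1*, a Nodal co-receptor of the EGF-CFC family, was higher in 8 of 9 embryos, with a median ratio of 25.8, and *Hhex*, a homeobox gene of the anterior endoderm, was higher in 8 of 9. *Fgf8* and *Cdh2* (N-cadherin) were higher in 9 of 9, with median ratios of 6.32 and 6.07. Among the marker genes, *Fgf5* was higher in 9 of 9 (median ratio 1.63), and *Utf1* and *Pou5f1* were lower in 9 of 9 (median ratios 0.106 and 0.313). These cells were not alike in every embryo. At E6.0 replicate 1 the 22 cells had *Pou5f1* at 1995 CPM against 2132 CPM in the other selected cells, *Utf1* at 707 against 1586 CPM and *Krt8* at 57.1 against 43.0 CPM. The 6 cells at late E6.0 had *Utf1* at 479 against 1097 CPM, *Krt8* at 164.5 against 25.1 CPM, *Cfc1* at 130.6 against 5.05 CPM, and *Cer1*, a gene of the split, at 1011 CPM, within the 856 to 1518 CPM of such cells from E6.5 to E7.0. At early E7.5 such cells had *Cer1* at 57.4 CPM and *Sox17* at 18.3 CPM, and *Hhex* at 2.44 CPM against 62.3 to 105 CPM from E6.5 to E7.0. By these genes the label held for most of the selected cells and was in doubt for the endoderm-marked cells, most clearly for those from E6.5 to E7.0. KO results below are given with and without those cells where they matter. The trend with age was fitted with them only, and levels without them are given for *Krt8* and *Cyp26a1*.

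Markers of other cell types were summed in the selected cells, with the cells carrying endoderm UMIs included. The 14 listed genes of extra-embryonic ectoderm summed to between 10.3 and 43.9 CPM in early controls, 29.6 and 161.5 CPM in middle controls, and 14.4 and 32.8 CPM in the KO embryos, and *Elf5*, which defines that tissue, was at most 3.28 CPM. At early E7.5 most of that sum was *Cdx2* (61.0 CPM) and *Hand1* (43.8 CPM), which the posterior epiblast and mesoderm also express. The visceral endoderm list (15 of 17 genes found in the files) summed to between 59.3 and 411 CPM in early controls, 223 and 376 CPM in middle controls, and 359 and 421 CPM in the KO embryos. Its leading gene was *Apoe*, while *Ttr* was between 0 and 53.2 CPM and *Afp* between 0 and 10.2 CPM. The 11 parietal endoderm genes summed to between 166 and 279 CPM in early controls, 271 and 344 CPM in middle controls, and 204 and 256 CPM in the KO embryos, with *Sparc*, a matrix protein gene that many tissues express, as the leading gene. The blood and endothelium list reached at most 18.2 CPM in any embryo. The germ cell list was between 39.7 and 86.4 CPM, with *Ifitm3* and *Dnd1* as its leading genes. The 16 mesoderm genes summed to between 33.0 and 103.4 CPM, and 10 of them were under 3 CPM in all 10 embryos. The 24 neural and anterior ectoderm genes summed to 168 to 333 CPM in early controls and 256 and 237 CPM in KO embryos. In middle controls they summed to 306, 429 and, at early E7.5, 1116 CPM. The 10 surface ectoderm genes summed to between 121 and 346 CPM in early and 246 and 393 CPM in middle controls. In the KO embryos they were 461 and 513 CPM. At early E7.5, with the highest neural sum and the lowest *Fgf5* and *Utf1*, the label was in doubt as well.

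The share of cells selected did not differ detectably with age or genotype. Early controls had 24.5% ± 4.96 (SD, n = 5) and middle controls 22.6% ± 9.10 (SD, n = 3), a difference of -1.92 percentage points (two-sided exact permutation test over embryos, p = 0.714). The smallest share was 12.4% at early E7.5, and without that embryo the difference was 3.17 points. The KO embryos had 24.9% and 26.0%, a difference of 1.89 points from controls within stages (two-sided exact permutation test, p = 0.833, with 0.0417 the smallest p this design allows). A share of all cells also depends on how many other cells an embryo has. It depends on the criteria as well, whose genes changed with age. At early E7.5, 153 selected cells had exactly 3 markers and 114 cells missed with 2. Without the *Mesp1* criterion, which removed cells from controls only, the KO difference was 1.22 points and the age difference -1.35 points. The limit of 50000 UMIs per cell removed 107 cells at E6.0 replicate 3 that met the gene criteria, more than the 69 it kept. At late E6.0, the other experiment 8 control, it removed 82 and kept 139. From the KO embryos it removed 19 and 4. Its part in the KO comparisons among experiment 8 embryos only was not tested.

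The first comparison asked how epiblast cells changed from early to middle stages in the 8 controls. *Irx3*, a homeobox gene of the neural plate, went from 1.64, 4.34 and 1.96 CPM at E6.0 to 3.36 at late E6.0, 25.3 at E6.5, 15.02 at late E6.5, 58.6 at E7.0 and 183 at early E7.5. *Tdgf1*, the EGF-CFC co-receptor that Nodal signalling needs, went the opposite way, from 290, 253 and 176 CPM at E6.0 to 152, 52.2, 102, 9.80 and 0.0491 CPM. In both genes late E6.5 was less advanced than E6.5, so the stage labels do not order the embryos strictly in these genes.

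By edgeR's quasi-likelihood test, 0 of 12968 genes passed an adjusted p of 0.05 between 3 middle and 5 early controls. At an unadjusted p under 0.05 there were 1540 genes, and DESeq2 called 85, of which 23 were higher and 62 lower in middle controls. A linear trend over the 6 ages in the same embryos called 747 genes rising (5.76% of those tested) and 355 falling (2.74%). That trend called 0 genes, with 1001 at an unadjusted p under 0.05, when fitted on the 4 controls of experiment 7, and 0 genes, with 792 unadjusted, with the experiment as a covariate. All 3 middle controls lay above all 5 early controls for 528 genes (4.07%) and below them for 277 (2.14%), among them 1 of the 19 neural ectoderm genes tested (above) and 0 of the 18 Nodal genes. Apart from E6.5, the early controls were all of experiments 6 and 8 and the middle controls all of experiment 7, so the trend over all 8 controls mixes age with experiment. "Rose" and "fell" below mean called by the trend over 8 controls at an adjusted p of 0.05, and slopes are log2 changes per step of age with their standard error. Without the E6.5 control, the comparison of middle with early controls called 1092 genes, 841 higher and 251 lower. The list counts that follow are read only beside the 5.76% rising and 2.74% falling of all genes, and several, such as those of the cell cycle, epithelium, p53 and hypoxia lists, rest on 1 to 3 genes. Genes called by the trend and named here were chosen after their values were seen.

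In the pluripotency list, 4 of 15 tested genes rose and 1 fell. *Nanog*, which holds cells in the pluripotent state, fell by 0.298 ± 0.0742 per step (SE, edgeR adjusted p = 0.038), from 63.6, 86.8 and 52.0 CPM at E6.0 to 19.3 at E7.0 and 26.8 at early E7.5. Its slope was -0.087 with the experiment as a covariate and -0.0429 within experiment 7. *Klf4*, a naive-state factor, rose from 2.45 to 4.34 CPM at E6.0 to 11.3 and 23.3 CPM (slope 0.487 ± 0.0999, edgeR adjusted p = 0.0214), and *Klf2*, *Tbx3* and *Lin28a* rose as well. *Lin28a*, an RNA-binding regulator of let-7, had 117, 124 and 140 CPM at E6.0 and 268 CPM at early E7.5. The most abundant gene of the list, *L1td1*, was 233 ± 27.6 CPM in early controls (SD, n = 5) and 35.4 CPM at early E7.5, and *Sall4* was 161 ± 42.7 and 197 ± 15.1 CPM (n = 5 and n = 3), and neither passed the test.

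In the primed epiblast list, 1 of 17 genes rose and 2 fell. *Sox3*, a SOXB1 factor of the neural lineage, was 5.75, 6.51 and 19.13 CPM at E6.0, 21.4 at late E6.0, 55.1 at E6.5, 30.4 at late E6.5, 57.3 at E7.0 and 99.9 CPM at early E7.5 (slope 0.592 ± 0.122, edgeR adjusted p = 0.0214; 0.317 with the experiment as a covariate and 0.325 within experiment 7). *Dnmt3a*, a *de novo* DNA methyltransferase gene, fell from 198 to 298 CPM at E6.0 to 99.2 CPM at early E7.5, as did *Slc7a3*, a cationic amino acid transporter. *Igfbp2* was 303 ± 94.5 CPM in early and 349 ± 71.1 CPM in middle controls (SD, n = 5 and n = 3) and did not pass.

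**Figure D3:**
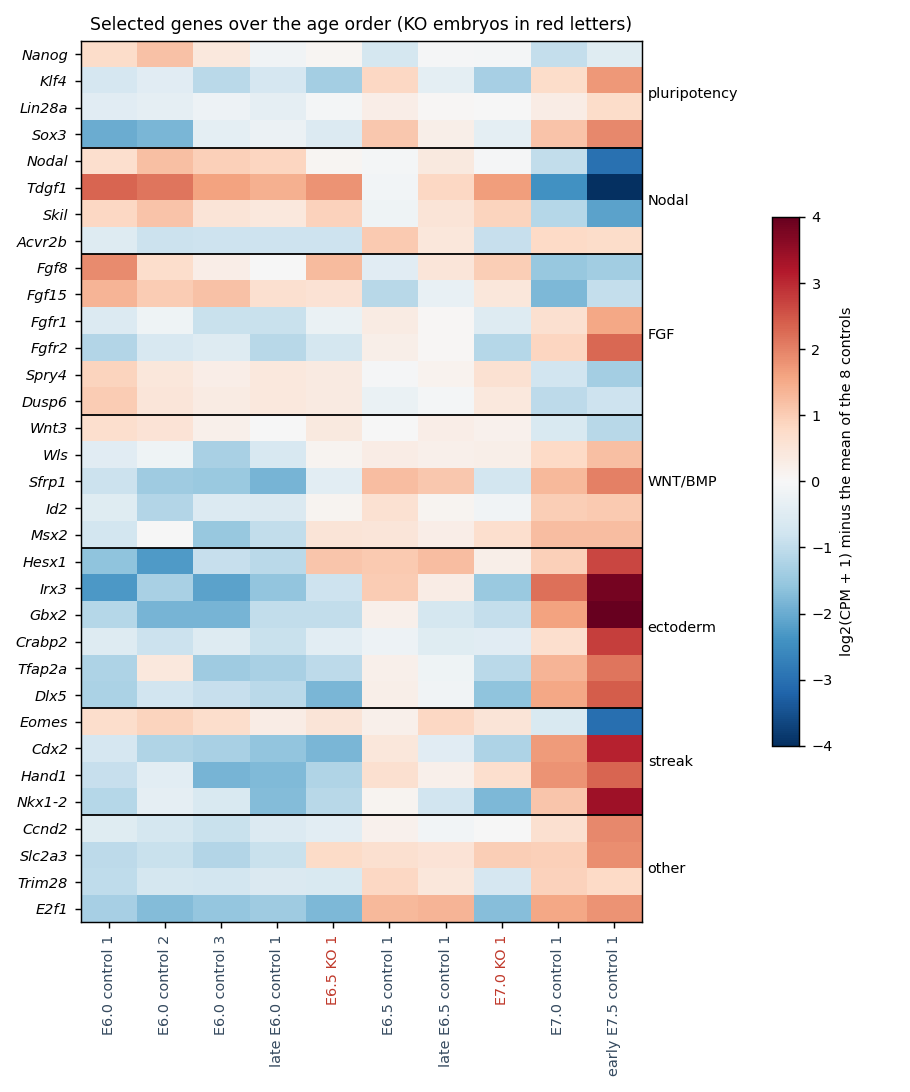
Colour gives log2(CPM + 1) of each gene minus the mean over the 8 controls (colours stop at 4 in either direction), with embryos in age order along the horizontal axis, KO embryos in red letters, and genes grouped by role. *Tdgf1* and *Nodal* are highest at E6.0 and lowest at early E7.5, ectoderm genes such as *Irx3* and *Gbx2* are highest at early E7.5, and the KO embryos are like the younger controls in *Tdgf1* and *Irx3* but not in *Slc2a3*.

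In the Nodal pathway, 4 of 18 tested genes fell and 2 rose. *Nodal*, the TGF-beta family ligand that maintains the primed state and induces mesendoderm, had 20.3, 29.7 and 25.0 CPM at E6.0, 23.3 at late E6.0, 11.7 at E6.5, 16.6 at late E6.5, 5.81 at E7.0 and 0.688 CPM at early E7.5 (slope -0.644 ± 0.163, edgeR adjusted p = 0.0401; -1.06 with the experiment as a covariate and -1.2 within experiment 7). *Lefty1* and *Lefty2*, secreted Nodal inhibitors, also fell, from at most 7.02 CPM. *Skil*, a SMAD corepressor and target of the pathway, fell from 54.0 to 83.9 CPM at E6.0 to 7.72 CPM at early E7.5. *Tdgf1*, whose levels are given above, did not pass the test (slope -1.08 ± 0.297, edgeR adjusted p = 0.0512; -2.08 with the experiment as a covariate and -2.4 within experiment 7). *Acvr2b*, a type II receptor, and *Smad2*, the signal transducer, rose, but *Acvr2b* was 51.6 CPM at E6.5 and 34.1, 42.9 and 41.4 CPM in the middle controls, and its slope turned to -0.0709 within experiment 7. *Foxh1*, the nuclear partner of SMAD2, was 107 ± 25.2 CPM in early and 112 ± 6.01 CPM in middle controls (SD, n = 5 and n = 3).

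In the FGF pathway, 7 of 19 tested genes fell and 4 rose. Those that fell included the ligands *Fgf8* and *Fgf15*, and those that rose were the receptors *Fgfr1*, *Fgfr2* and *Fgfr3* and the feedback inhibitor *Spred1*. *Fgf8*, a ligand of the streak and posterior epiblast, went from 151, 66.6 and 49.0 CPM at E6.0 to 13.6 at E7.0 and 14.7 CPM at early E7.5 (slope -0.49 ± 0.118, edgeR adjusted p = 0.0339). *Fgf15* fell from 49.2 to 63.03 CPM at E6.0 to 6.16 and 11.8 CPM. The ERK feedback genes *Dusp6*, *Spry1* and *Spry4*, and the ETS factor *Etv1*, fell as well, as did *Il17rd*, *Dusp6* from 41.2 to 66.5 CPM at E6.0 to 15.2 and 17.9 CPM. *Fgfr1*, the main receptor of the epiblast, had 28.5, 36.9 and 22.1 CPM at E6.0 and 66.1 and 125 CPM at E7.0 and early E7.5 (slope 0.391 ± 0.0579, edgeR adjusted p = 0.00938). *Fgfr2* rose from at most 2.45 CPM at E6.0 to 7.85 and 23.2 CPM, and *Fgfr3* also rose but was at most 3.98 CPM. *Spred1* rose from 5.75 to 7.85 CPM at E6.0 to 14.7 and 20.3 CPM. The ligands *Fgf3* and *Fgf17* and the inhibitors *Spry2*, *Dusp4* and *Spred2* did not pass the test.

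In the WNT list, 8 of 24 tested genes rose (*Wnt5a*, *Sp8*, *Ctnnb1*, *Notum*, *Porcn*, *Wls*, *Fzd10* and *Sfrp1*) and 1 fell. The one that fell was *Wnt3*, the ligand needed to form the streak, from 8.34 to 11.9 CPM at E6.0 to 2.75 CPM at early E7.5. *Wls*, which carries WNT ligands to the cell surface, rose from 9.81 to 22.4 CPM at E6.0 to 45.1 and 60.3 CPM at E7.0 and early E7.5, and *Sfrp1*, a secreted WNT inhibitor, from 9.81 to 15.5 CPM to 73.7 and 119 CPM. *Sfrp1* was already 69.3 CPM at E6.5 and 62.9 CPM at late E6.5, and its slope of 0.689 became 0.235 with the experiment as a covariate and 0.259 within experiment 7. *Ctnnb1* (beta-catenin), the most abundant member, was 294 ± 70.1 CPM in early and 387 ± 50.7 CPM in middle controls (SD, n = 5 and n = 3) and rose. In the BMP list, 8 of 19 tested genes rose (*Bmp7*, *Id2*, *Id4*, *Smad1*, *Smad6*, *Bambi*, *Nog* and *Msx2*) and none fell by edgeR's trend, with the inhibitor of differentiation gene *Id2* at 31.8 to 52.3 CPM at E6.0 and 145 and 153 CPM at E7.0 and early E7.5, and the target *Msx2* at 2.45 to 8.68 CPM at E6.0 and 22.3 CPM in both. *Id2* was already 112.8 CPM at E6.5 and then 79.8 CPM at late E6.5, and its slope of 0.367 became 0.188 with the experiment as a covariate and 0.204 within experiment 7 (edgeR adjusted p = 0.941 and 0.753). *Id3*, the most abundant member, was 645 ± 102 and 690 ± 62.3 CPM (n = 5 and n = 3) and did not pass.

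Genes of the ectoderm mostly rose. Of 19 tested neural and anterior ectoderm genes, 14 rose and 0 fell by edgeR's trend, with a median slope of 0.593 against 0.00245 over all genes tested. They were *Hesx1*, *Six3*, *Lhx2*, *Irx3*, *Pax6*, *Gbx2*, *Sox11*, *Sfrp1*, *Ptn*, *Crabp1*, *Crabp2*, *Cyp26a1*, *Nkx1-2* and *Lhx5*. Of these, *Nkx1-2* and *Lhx5* were in the streak list too and *Sfrp1* in the WNT list, so the counts overlap and are not of ectoderm alone. *Hesx1*, a homeobox gene of the anterior neural plate, was at most 3.43 CPM up to late E6.0, between 15.3 and 18.6 CPM from E6.5 to E7.0 and 52.4 CPM at early E7.5. *Gbx2*, which marks the future hindbrain, was at most 0.841 CPM up to late E6.0, 3.19 at E6.5, 1.23 at late E6.5, 10.0 at E7.0 and 95.3 CPM at early E7.5. *Crabp2*, a retinoic acid binding protein, was between 19.8 and 32.5 CPM up to late E6.5 and 60.4 and 259 CPM afterwards. *Zic5*, the most abundant member, did not pass (68.8 ± 7.58 and 62.7 ± 14.99 CPM, SD, n = 5 and n = 3). Of 7 tested surface ectoderm genes 5 rose, *Tfap2a*, to 28.3 CPM, and *Dlx5*, to 34.1 CPM at early E7.5, and *Tfap2c*, *Wnt6* and *Krt8*. *Krt8* was 118.8 CPM at E6.5, but 36.4 CPM there without the cells carrying endoderm UMIs. Without those cells the controls had *Krt8* at 25.1 to 43.0 CPM up to E7.0 and 84.7 CPM at early E7.5. *Cyp26a1* was then at most 1.65 CPM in controls up to E7.0 and 24.5 CPM at early E7.5. The trend was not fitted without those cells.

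Shares of cells with a UMI are given beside the sums, as a description. After every cell was thinned to 10000 UMIs, *Irx3* was found in 0.279%, 2.44% and 1.69% of selected cells at E6.0, 1.55% at late E6.0, 17.8% at E6.5, 12.6% at late E6.5, 38.0% at E7.0 and 77.5% at early E7.5. *Nanog* was found in 36.6%, 43.9% and 39.0% at E6.0 and 15.6% and 23.5% at E7.0 and early E7.5. *Eomes* was found in 25.4% to 39.0% of selected cells up to late E6.5, 19.4% at E7.0 and 3.75% at early E7.5. In control cells with a streak gene UMI, *Irx3* was found in 6.33% to 17.8% up to late E6.0. It was in 27.6% and 24.5% of them at E6.5 and late E6.5, and up to there above the selected cells of each control. At E7.0 and early E7.5 it was in 25.1% of them, below the selected cells. *Gbx2* was in more of them than of selected cells in every control, with 62.9% against 36.0% at early E7.5. As a background, cells with at least 20 UMIs of *Ttr*, *Apoa1*, *Rbp4* and *Amn* and at most 1 of the 6 markers, thinned in the same way, had *Irx3* in 0% to 1.64% and *Nanog* in 0% to 0.553%. In those cells *Eomes*, which the visceral endoderm itself expresses, was found in 0% to 27.3%, and the 3.75% at early E7.5 was below the 10.5% of that embryo.

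**Figure D4:**
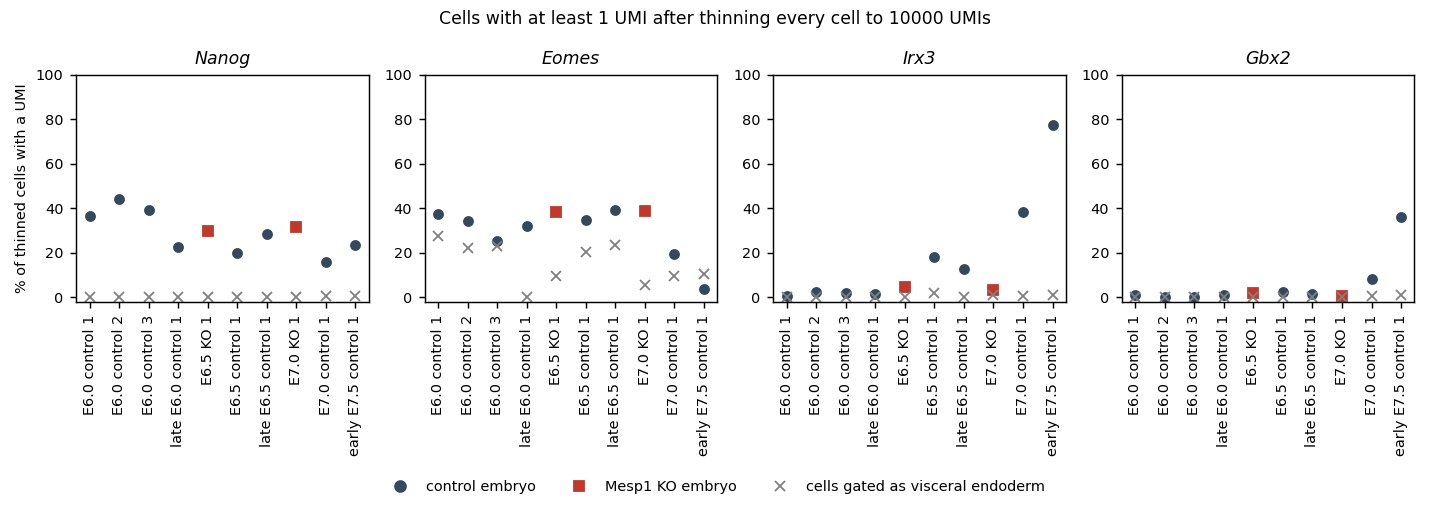
Share of cells (%, vertical axis) with at least 1 UMI of *Nanog*, *Eomes*, *Irx3* and *Gbx2* after thinning every cell to 10000 UMIs, in age order; circles and squares are selected cells of control and KO embryos, and crosses are cells gated by 4 visceral endoderm genes. *Irx3* reaches 77.5% of selected cells at early E7.5 and is at 4.76% and 3.42% in the KO embryos.

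Genes of the streak list did not move together. *Eomes*, which the selection did not use, was 73.9, 84.6 and 74.0 CPM at E6.0, 28.9 at E7.0 and 4.67 CPM at early E7.5, and did not pass the test (slope -0.438 ± 0.162, edgeR adjusted p = 0.126). Its slope was -1.1 with the experiment as a covariate and -1.19 within experiment 7 (edgeR adjusted p = 0.566 and 0.691). The posterior genes *Cdx2*, *Hand1* and *Nkx1-2* rose, *Cdx2* from at most 3.65 CPM at E6.0 to 22.8 and 61.0 CPM and *Nkx1-2* to 13.7 and 70.9 CPM at E7.0 and early E7.5. *Cdx1* was at most 0.75 CPM up to E7.0 and 79.3 CPM at early E7.5. Of 21 tested genes 5 rose, *Ifitm1* and *Lhx5* beside the 3 posterior genes, and 3 fell (*Fgf8*, *Wnt3* and *Lefty2*). In the marker lists of other tissues, *Ascl2*, *Tfap2c*, *Tbx20*, *Twist1* and *Col4a1* rose as well. The selected cells of early E7.5 thus held ectoderm genes such as *Irx3* and posterior genes such as *Cdx1* at the same time in their sum, and the sum does not say whether single cells held both.

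Of 22 tested genes of epithelium and its loss 3 rose and 0 fell by edgeR's trend. Those that rose are known from the loss of epithelium: *Vim*, vimentin, from 31.8 to 78.7 CPM at E6.0 to 93.8 and 139 CPM at E7.0 and early E7.5, *Zeb2*, a repressor of E-cadherin, from 4.34 to 5.89 CPM to 18.3 and 21.2 CPM, and *Twist1*, which was at most 4.23 CPM. *Epcam*, with no call, was between 333 and 727 CPM in early and between 462 and 678 CPM in middle controls, and *Cldn7*, a tight junction claudin, was 259 ± 40.8 and 179 ± 72.5 CPM (SD, n = 5 and n = 3). Of 11 tested DNA methylation genes 2 rose and 1, *Dnmt3a*, fell. *Trim28*, a corepressor that recruits methylation, and *Mbd3*, a NuRD subunit, rose, but *Trim28* was 202 to 274 CPM in the controls of experiments 6 and 8 and 566 to 788 CPM in those of experiment 7, E6.5 included. The cell cycle factor *E2f1* had the same split, with 2.89 to 4.11 CPM against 30.3 to 43.7 CPM. Of 27 cell cycle genes 2 rose (*Ccnd2*, cyclin D2, and *E2f1*) and 1, *Myc*, fell, from 43.2 to 90.3 CPM at E6.0 to 18.8 and 20.8 CPM. Within experiment 7, where E6.5 was the lone early control, the middle minus early log2 change was 0.262 for *Nanog*, 0.252 for *Fgf15* and 0.0269 for *Myc*, which fell over all 8 controls, and -0.0689 for *Trim28*. *Cdk4*, the most abundant, was 994 ± 191 and 1023 ± 93.8 CPM (SD, n = 5 and n = 3).

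Of 15 tested p53 and apoptosis genes, *Mcl1* rose and *Pmaip1*, which encodes the BH3-only protein NOXA, fell, while *Bax* was 379 ± 19.7 and 379 ± 31.1 CPM in early and middle controls (SD, n = 5 and n = 3). Of 20 glycolysis genes only *Slc2a3*, a glucose transporter, rose, from 48.1 to 58.6 CPM up to late E6.0 to 161 to 401 CPM from E6.5 on. *Ldha*, lactate dehydrogenase, was the most abundant and was between 4385 and 7235 CPM with no call. Of 11 hypoxia genes 1 rose, *Ddit4*. In the dissociation stress list, 2 of 11 rose, *Jun* (17.2 to 30.01 CPM at E6.0, 161 CPM at early E7.5) and *Fosb*, and *Fos*, with no call, was 30.2 CPM in E6.0 replicate 1, 47.1 CPM at E6.5, 38.3 CPM at E7.0 and 272 CPM at early E7.5, and at most 6.94 CPM in the other controls, so that embryos of 1 stage differed in this list. Its part in the other results was not tested. Several slopes moved by over 1.5 times with the experiment as a covariate. They became smaller for *Hesx1* (0.855 to 0.506), *Fgf15* (-0.543 to -0.147), *Myc* (-0.374 to -0.116), *E2f1* (0.756 to 0.175) and *Trim28* (0.376 to 0.0473), and larger for *Crabp2* (0.593 to 0.948) and *Skil* (-0.497 to -0.776).

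The second comparison asked whether the epiblast of *Mesp1* KO embryos differed from that of controls before its cells enter the streak. In edgeR's quasi-likelihood fit, adjusted for stage, 0 of 13406 genes passed an adjusted p of 0.05. There were 1531 genes at an unadjusted p under 0.05, and DESeq2 called 337, 83 higher and 254 lower in KO (0.619% and 1.89% of those tested). The smallest edgeR adjusted p was 0.0824, for *P4ha1*. At the early stage alone 0 of 14235 genes passed (548 unadjusted, DESeq2 3), at the middle stage 0 (1144 unadjusted, DESeq2 97), and for the difference between the stages 0 (137 unadjusted, DESeq2 1), with 1 KO embryo per stage that is assumed to vary like the others. Without E6.0 replicate 3 the KO comparison called 122 genes, 18 higher and 104 lower, and without the E6.5 control the middle stage comparison called 253 and the difference between the stages 31, 1 higher and 30 lower. With the 2 age-matched controls alone, of another experiment, it called 2787 genes, 1074 higher and 1713 lower, and with the 2 younger controls of experiment 8 it called 338, 226 higher and 112 lower. With the experiment as a covariate the 4 genes called, and without late E6.5 the 10 called, were all higher in KO by edgeR, so the balance of directions depended on the controls used. In simulated counts for the same embryos, 45 of 61 genes changed 4-fold were called, 15 of 70 changed 2-fold and 1 of 66 changed 1.5-fold. The simulated embryos did not differ by experiment or stage, so these rates do not say what could be found in the real ones.

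Both KO embryos were above all 8 controls for 573 genes (4.27%) and below them for 518 (3.86%). Genes of endoderm and anterior mesendoderm were among those above. In the streak list *Lhx1*, *Gsc*, *Foxa2*, *Cer1*, *Cdh2* and *Chrd* lay above all controls, 6 of 21 tested, and in the visceral endoderm list *Apoe*, *Hnf4a*, *Sox17*, *Gata4* and *Gata6*, 5 of 14. These lists did not move as a whole: the median log2 change was 0.168 in the streak list and -0.117 in the visceral endoderm list. The summed visceral endoderm list was 359 and 421 CPM in KO, against up to 411 CPM in early controls. *Cer1* was 247 and 179 CPM in the KO embryos, and in the controls it was 7.85, 0 and 0 CPM at E6.0, 44.1, 129 and 171 CPM at late E6.0, E6.5 and late E6.5, and 76.0 and 2.41 CPM at E7.0 and early E7.5. *Lhx1*, a LIM homeobox gene of anterior mesendoderm, was 52.6 and 42.7 CPM against at most 17.7 CPM. *Foxa2* was 23.3 and 15.6 CPM against at most 7.94 CPM (log2 change 2.04 ± 0.507, edgeR adjusted p = 0.16).

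*Cfc1*, at chr1:34535648-34544313 on the plus strand, was 93.0 and 78.5 CPM in the KO embryos, 27.8, 41.1 and 14.4 CPM at E6.5, late E6.5 and E7.0, and at most 10.5 CPM in the other controls (log2 change 2.54 ± 0.616, edgeR adjusted p = 0.151, DESeq2 0.0185). *Krt8* was 196 and 205 CPM against 26.97 to 119 CPM (log2 change 1.59 ± 0.422, edgeR adjusted p = 0.188, DESeq2 0.0447). With the experiment as a covariate edgeR called *Krt8*, with a log2 change of 2.76 ± 0.194 (adjusted p = 0.0022), and among experiment 8 embryos only it was 2.69 ± 0.103 (edgeR adjusted p = 2.1e-05). Against the age-matched controls alone it was smaller, 0.845 ± 0.0759 (edgeR adjusted p = 0.00224). *P4ha1*, a subunit of the collagen prolyl hydroxylase, was 47.6 and 42.2 CPM against 18.8 to 26.2 CPM (log2 change 1.13 ± 0.138, edgeR adjusted p = 0.0824, DESeq2 8.71e-08). *Fn1*, fibronectin, was 45.6 and 50.4 CPM against 14.3 to 31.3 CPM, and *Tcf7l2*, a WNT effector, 56.2 and 41.5 CPM against 15.7 to 33.7 CPM.

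All of these differences moved with the 434 cells that carried endoderm transcripts. Without those cells *Cfc1* was 2.39 and 3.77 CPM in the KO embryos and 4.18 to 7.76 CPM in the controls, so that its order turned (log2 change -0.814 ± 0.266, edgeR adjusted p = 0.358). *Krt8* was 28.4 and 46.6 CPM against 25.1 to 84.7 CPM (log2 change -0.128 ± 0.295). *P4ha1* was 23.5 and 22.3 CPM against 15.3 to 20.8 CPM, still above every control but by less (log2 change 0.412 ± 0.163, edgeR adjusted p = 0.455), and *Fn1* overlapped with the controls. *Tcf7l2* was 22.0 and 20.7 CPM against 14.96 to 19.6 CPM, also still above every control (log2 change 0.322 ± 0.155, edgeR adjusted p = 0.535). Of the streak list 0 of 17 tested genes, and of the visceral endoderm list 0 of 12, then lay above all controls. Of all 13007 genes tested without those cells, 319 lay above (2.45%) and 511 below (3.93%). The split removes *Cer1*, *Lhx1*, *Gsc*, *Foxa2*, *Sox17* and *Gata6* by its definition, but it did not use *Cfc1*, *Krt8*, *P4ha1*, *Fn1*, *Hnf4a*, *Gata4* or *Cdh2*. Still, *Cfc1*, *Krt8*, *P4ha1*, *Fn1* and *Cdh2* were higher in the removed cells (median ratios 25.8, 17.3, 4.62, 4.35 and 6.07). The KO embryos held the largest shares of such cells. The fall of these genes on removal thus largely follows from the split and is no separate test. *Pou5f1* in the remaining cells was 1961 and 1831 CPM in the KO embryos, against 1638 and 1527 CPM in the age-matched controls.

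**Figure D5:**
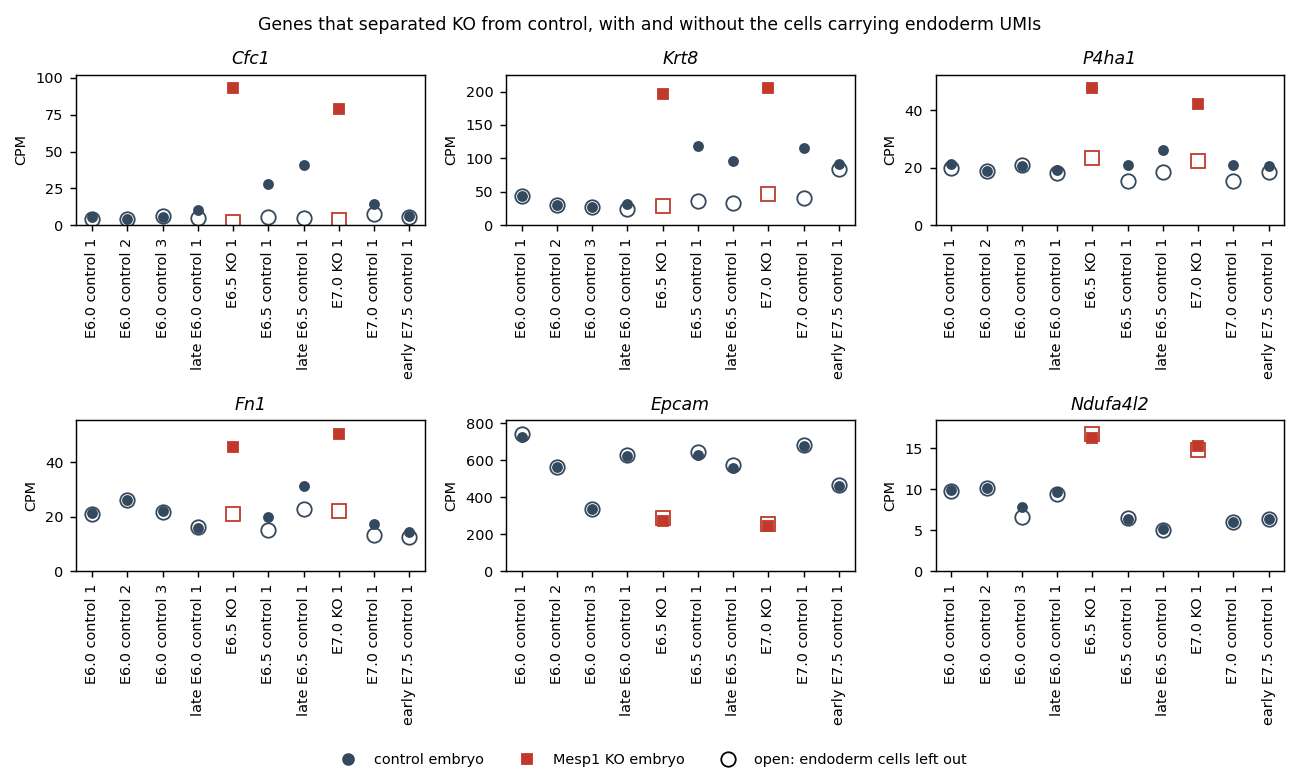
CPM (vertical axes, from 0) of 6 genes in each embryo in age order, in all selected cells (filled) and with the 434 cells carrying endoderm UMIs left out (open); circles are controls and squares *Mesp1* KO embryos. *Cfc1*, *Krt8* and *Fn1* of the KO embryos fall into or below the control range without those cells, whereas *Epcam* (below) and *Ndufa4l2* (above) stay outside it.

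Several genes lay outside the control range with or without those cells, although none passed edgeR's test. *Epcam*, an epithelial adhesion gene, was 271 and 243 CPM in the KO embryos and between 333 and 727 CPM in the controls (log2 change -1.08 ± 0.227, edgeR adjusted p = 0.134, DESeq2 0.000525), and 286 and 252 CPM without the endoderm cells against 336 to 741 CPM. The lowest control, at 333 CPM, was E6.0 replicate 3, of the same experiment as the KO embryos, but late E6.0 of that experiment had 621 CPM. *Ccne1*, cyclin E1, was 41.0 and 45.7 CPM against 61.3 to 210 CPM (log2 change -1.91 ± 0.351, edgeR adjusted p = 0.122, DESeq2 9.51e-06), and again E6.0 replicate 3 was the lowest control. *Cdkn1a*, which encodes the inhibitor p21, was 6.22 and 4.14 CPM against 10.1 to 30.4 CPM. *Ndufa4l2*, a hypoxia-inducible mitochondrial gene, was 16.2 and 15.2 CPM against 5.13 to 10.1 CPM (log2 change 1.21 ± 0.198, edgeR adjusted p = 0.117), but its log2 change was 0.793 with the experiment as a covariate and 0.723 among experiment 8 embryos only. Cells with a streak gene UMI had *Epcam* at 121.2 and 131.5 CPM in KO against 136.9 to 398.5 CPM. *Ndufa4l2* was 39.6 and 39.2 CPM there against 6.52 to 25.1 CPM. *P4ha1*, *Cfc1* and *Krt8* also lay above all controls in those cells, and *Fn1* and *Tcf7l2* overlapped. The differences outside the range in both were thus not particular to the selected cells.

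Some genes had levels in both KO embryos like those of the younger controls of experiment 8. *Tdgf1*, which did not pass the trend over age, was 200 and 185 CPM in the KO embryos, 176 and 152 CPM in E6.0 replicate 3 and late E6.0, and 52.2 and 9.80 CPM in the age-matched controls. *Irx3* was 6.39 and 3.66 CPM, against 1.96 and 3.36 CPM in the experiment 8 controls and 25.3 and 58.6 CPM in the age-matched ones. *Sox3* was 17.1 and 19.3 CPM, against 19.13 and 21.4 CPM and 55.1 and 57.3 CPM. *Fgf8* was an exception in part, with 98.6 and 80.1 CPM in the KO embryos and 49.0 and 40.1 CPM in the experiment 8 controls. Without the endoderm cells *Fgf8* was 36.7 and 24.5 CPM in the KO embryos. The experiment 8 controls then had 41.2 and 34.7 CPM and the age-matched ones 19.2 and 11.8 CPM. Over the 747 genes that rose with age in the controls, both KO embryos were less advanced than their age-matched control in 641 and more advanced in 40, and more advanced than late E6.0 in 361 and less in 276. The median log2 difference from the control mean was -0.423 and -0.479 in the KO embryos and 0.47 and 0.666 in the age-matched controls. It was -0.732 and -0.509 in the experiment 8 controls and -0.544 and -0.62 in the experiment 6 controls. For the rising genes the KO embryos thus lay close to the E6.0 and late E6.0 controls of experiments 6 and 8. Over the 355 that fell, both were less advanced than their age-matched control in 269 and more in 30, and more advanced than late E6.0 in 220 and less in 72. For these, the median log2 difference from the control mean was 0.11 and 0.0912 in the KO embryos and -0.237 and -0.458 in the age-matched controls. It was 0.304 and 0.264 in the experiment 8 controls and 0.574 in both experiment 6 controls. For the falling genes the KO embryos thus lay between the sets of controls. These genes were chosen on the controls' own levels, so the counts are a description. The age-matched controls were all of experiment 7 and the controls of experiment 8 were all younger, so genotype, age and experiment cannot be told apart here.

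Not every gene with age followed the younger controls. *Hesx1* was 17.1 and 8.86 CPM in the KO embryos, against at most 3.43 CPM in the experiment 8 controls and 16.1 and 15.3 CPM in the age-matched ones. *Slc2a3* was 187 and 217 CPM, against 48.1 and 58.0 CPM and 171 and 214 CPM. In contrast, *Fst*, which encodes the activin antagonist follistatin, was 14.4 and 15.8 CPM in the KO embryos. *Fst* was 20.6 and 17.4 CPM in the experiment 8 controls, 38.8 and 31.1 CPM in the experiment 6 controls and 106 and 101 CPM in the age-matched ones. *Trim28* (272 and 260 CPM) and *E2f1* (2.69 and 2.98 CPM) in the KO embryos lay close to the controls of experiments 6 and 8 alike. Those controls were all younger than the KO embryos, so experiment and age cannot be told apart here.

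The remaining lists held few genes outside the control range. In the pluripotency list 0 of 16 tested genes lay above and 2 (*Klf4* and *Dppa4*) below all controls. *Dppa4* had 0 UMIs in both KO embryos, which allows up to 0.252 and 0.289 CPM, and 4 controls had less than that (0.0268 to 0.2102 CPM), so its order is not read. In the primed epiblast list 1 of 17 lay above (*Epha2*) and 3 below, in the Nodal list 1 of 18 above (*Cfc1*), in the WNT list 1 of 24 on each side, and in the BMP and FGF lists 1 of 20 above in each. In the neural ectoderm list 1 of 20 lay above and 3 below, in the surface ectoderm list 2 of 9 above (*Krt8* and *Krt18*) and 1 below (*Dlx5*), and in the epithelium list 3 of 23 above and 1 below. Of 27 cell cycle genes 4 lay below (*Ccna2*, *Ccne1*, *Ccnd1* and *Cdkn1a*) and 0 above, and of 11 hypoxia genes 2 lay above. Of 15 p53 and apoptosis genes 2 lay below, of 20 glycolysis genes 1 above, and of 11 DNA methylation genes 0 on either side. The germ cell, blood and mesoderm lists each had 1 gene above (of 6, 3 and 11 tested), and the stress and parietal endoderm lists 1 below (*Egr1* of 11 and *Fst* of 9). *Egr1* lay below also without the cells carrying endoderm UMIs, and the part of dissociation stress in the KO results was not tested. Without the cells carrying endoderm UMIs, 0 primed epiblast genes (of 17), 0 neural ectoderm genes (of 19) and 0 p53 and apoptosis genes (of 15) lay below, and 0 surface ectoderm genes (of 8) and 0 epithelium genes (of 21) lay above. Other lists gained genes: *Bmp7* and *Smad1* of 20 BMP genes, *Snai1* and *Sp5* of 17 streak genes, *Snai1* beside *Epcam* of 21 epithelium genes, *Cfc1* of 18 Nodal genes, *Fgfr2* of 19 FGF genes and *Sp5* of 23 WNT genes then lay below, and *Trap1a* beside *Epha2* (primed epiblast), *Lef1* beside *Tcf7l2* (WNT) *L1td1* (pluripotency) and *Zic5* (neural ectoderm) lay above. In the extra-embryonic ectoderm list *Tex19.1* then lay below. Below all controls there remained 2 of 27 cell cycle genes (*Ccne1* and *Cdkn1a*), and 3 of 11 hypoxia genes then lay above. With so few genes per list, these shares are read only beside the 4.27% above and 3.86% below of all genes, and those without the endoderm cells beside 2.45% and 3.93%.

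*Eomes* divides the selected cells into those with and without a streak-inducing factor. Before thinning, 213 of 427 cells at E6.0 replicate 1 had an *Eomes* UMI, 485 of 1419 at E7.0 and 77 of 726 at early E7.5, against 249 of 421 and 222 of 435 in the KO embryos. Cells with an *Eomes* UMI were deeper, with a median of 24744 to 40644 UMIs against 15826 to 31760, which by itself raises the chance of a UMI. Compared with the cells of the same embryo that had none, they held more *Fgf8* in 10 of 10 embryos (median ratio 4.51), more *Fst* in 10 of 10 (4.14) and more *Nodal* in 9 of 10 (3.37), while *Utf1* and *Sox2* were lower in 10 of 10 (0.805 and 0.81). Endoderm transcripts moved with this split: *Cer1* was higher in the cells with *Eomes* in 7 of 10 embryos (median ratio 4.81) and *Sox17* in 6 of 10 (5.54), and *Fgf8* was itself 6.32 times higher, in the median, in the 434 endoderm-marked cells. The part of those cells in the ratios was not tested. These ratios are of CPM sums and are given with no test, since the cells of both groups come from the same libraries.

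The Ai14 reporter was found in few of the selected cells. The study permitted controls without the Ai14 reporter at stages that were hard to collect, and the early E7.5 control was taken as such an embryo. It had an Ai14 UMI in 4.96% of its selected cells (36 of 726, exact 95% binomial interval 3.50% to 6.80%). The other controls had Ai14 in 5.81% to 17.3% and the KO embryos in 10.2% and 9.43%. After thinning to 10000 UMIs the shares were 1.95% in the early E7.5 control, 2.44% to 8.94% in the other controls, and 4.50% and 5.41% in the KO embryos. Cells with the same markers and a streak gene had Ai14 in 5.84% of cells in the early E7.5 control and 19.0% to 43.2% in the other embryos. An eGFP UMI was found in 1.45% to 11.5% of selected cells, and in 8.55% and 4.14% in the KO embryos.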

How the data were processed

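Whole mouse embryos were profiled by droplet scRNA-seq (10x Genomics 5′ v1). With Cell Ranger 3.0.2 the authors mapped reads to mm10, extended by both reporter sequences, and deposited the raw UMI counts of every gene and barcode. Genotype and age came from the labels, allele details from the study's methods. Barcodes with 200 to 7000 genes (the study gives 6300 as well), under 50000 UMIs and under 10% mitochondrial UMIs were kept. Doublets were scored against simulated pairs within each library, at 0.8% per 1000 barcodes, kept, and left out in an alternative (196 selected cells were marked). The members and the 26 gene lists were chosen with earlier results of these data known.

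Counts of selected cells were summed per embryo, the replicate, and tested with edgeR 4.0.16 (filterByExpr, TMM, quasi-likelihood test, Benjamini-Hochberg over all genes tested, threshold 0.05) in R 4.3.3, leaving out the 10 genes of the selection. DESeq2 1.42.0 was an alternative. The p-values measure the spread between these libraries. The pairs of embryos differed by more than sampling noise (chi-square over its degrees of freedom 4.84 or more), so none was a repeat. For each list, its counts and its members past the threshold, or else its most abundant members, were named, and other genes were chosen after their values were seen. In simulated counts without differences between experiments, edgeR recovered 52 of 62 genes changed 4-fold between stages. Gene positions are from GENCODE vM21, whose gene IDs match those of the files. Results for 1 gene are not reported here.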

Additional observations from a re-analysis of the deposited data

Results flagged for a closer look

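Among 52 comparisons over the 5 early controls, 18 had a sample whose gap to the nearest other exceeded Dixon's limit (0.71 of the range). In each it was the E6.5 control, which was the highest early control for all of them: *Trim28* 727.7, *Slc2a3* 171.3, *Krt8* 118.8, *Id2* 112.8, *Fst* 105.5, *Sfrp1* 69.25, *Acvr2b* 51.57, *Sox17* 48.78, *E2f1* 30.26, *Tcf7l2* 29.57, *Cfc1* 27.76, *Irx3* 25.3, *Hesx1* 16.13, *Klf4* 11.92, *Cdx2* 9.06, *Dlx5* 6.813, *Klf2* 6.704 and *Gbx2* 3.189 CPM. This embryo was both the oldest early control and the only one of experiment 7, and these cannot be told apart. Genes named in the text were in part chosen after their values were seen, so the 18 are not set beside a chance rate.

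Cells meeting the same gene criteria were also present in all 5 late libraries, which entered no comparison, though 1 of these held only 1 such cell. They numbered 1475 of 6768 quality-controlled cells (21.8%) and 1455 of 22277 (6.53%) in the late E7.5 controls, 2510 of 13414 (18.7%) in an E7.75 control and 808 of 12853 (6.29%) in the late E7.5 KO embryo. The other E7.75 control had 1 of 14884. *Fgf5* in these cells was 62.7 CPM in the KO embryo and between 3.97 and 9.88 CPM in the 3 controls with more than 1 such cell. *Utf1* was 363 CPM in the KO embryo and between 19.2 and 185 CPM in those controls. The KO library and the E7.75 control with 1 such cell were of experiment 5, with a median of 3827 and 3926 UMIs per cell against 14063 to 19739 in the other late libraries. The part of depth in these numbers was not tested.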

How the results depend on the processing

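No paired analysis was possible because the KO groups share fewer than 2 replicate numbers with the controls and the numbers only count embryos of an age. Beside 0 genes called in each main comparison, the KO comparison over both stages gave 337 with DESeq2, 4 with the experiment as a covariate, 393 with age order as a covariate, 2787 with age-matched controls only, 338 with experiment 8 embryos only and 1 with *Eomes*-positive cells left out. Leaving out 1 embryo gave 0 to 122 (122 without E6.0 replicate 3, 10 without late E6.5). The early KO comparison gave 3 (DESeq2), 1 (no low-count filter), 2 (experiment), 1 (age order) and 0 to 4 (4 without the E6.5 control). The middle KO comparison gave 97 (DESeq2), 2 (experiment) and 0 to 253 (253 without the E6.5 control, 4 without E6.0 replicate 3). The difference of the KO effects between stages gave 1 (DESeq2) and 0 to 31 (31 without the E6.5 control). The age comparison gave 85 (DESeq2), 2 (no low-count filter), 1 (experiment), 1102 (trend over age order) and 0 to 1092 (1092 without the E6.5 control, 8 without the E7.0 control). The causes were not tested. Other cell-level settings, and leaving out the endoderm cells, which was added after seeing the data, gave 0.

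The KO difference in share turned from 1.89 points to -1.01 (*Eomes*-positive cells left out), -1.5 (thinned), -1.7 (endoderm cells left out) and -1.19 (experiment 8), and lay between -0.652 and 3.73 with 1 embryo left out. The age difference turned from -1.92 to 3.08 (*Eomes*-positive cells left out) and lay between -5.59 and 3.17 with 1 embryo left out. Log2 changes with age turned, with the experiment as a covariate and within experiment 7, for *Nanog* (0.257, 0.262), *Acvr2b* (-0.381, -0.379; as slopes -0.0672, -0.0709), *Fgf15* (0.239, 0.252), *Trim28* (-0.0705, -0.0689) and *Myc* (0.0218, 0.0269). KO changes turned for *Cfc1* (-0.814) and *Krt8* (-0.128) without endoderm cells, and for *Irx3* with the experiment as a covariate (0.373) and in experiment 8 (0.724). Of 1446 alternative values for 55 gene results, 1300 kept direction and side of the threshold, 130 passed it and 16 turned.

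The smallest embryo summed to 1382480 UMIs, where a count of 0 allows up to 2.17 CPM.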

Other observations

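Among the 573 of 13406 genes (4.27%) that lay above all 8 controls in both KO embryos were *Sc4mol*, *Cyp51* and *Stard4*, which were chosen after their values were seen and stand for no list. *Sc4mol*, a sterol methyl oxidase, was 43.9 and 42.5 CPM in the KO embryos, 20.1 and 25.2 CPM in the experiment 8 controls and 13.5 to 19.2 CPM in the other controls (log2 change 1.42 ± 0.211, edgeR adjusted p = 0.101, DESeq2 1.1e-05). *Cyp51*, lanosterol demethylase, was 34.8 and 39.0 CPM against 13.0 to 26.5 CPM (log2 change 1.1 ± 0.216, edgeR adjusted p = 0.122). *Stard4*, a sterol carrier, was 18.7 and 19.4 CPM against 5.06 to 10.9 CPM (log2 change 1.23 ± 0.2, edgeR adjusted p = 0.117). Without the cells carrying endoderm UMIs the log2 change was 1.55 ± 0.208 for *Sc4mol*, 1.23 ± 0.219 for *Cyp51* and 0.583 ± 0.208 for *Stard4* (edgeR adjusted p = 0.133, 0.188 and 0.397). Among experiment 8 embryos only, it was 0.817 ± 0.131, 0.478 ± 0.133 and 0.928 ± 0.178 (edgeR adjusted p = 0.022, 0.0983 and 0.0417), and for *Cyp51* it was 0.512 with the experiment as a covariate. Controls of experiment 8 were younger than the KO embryos, and genotype and age cannot be told apart there.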
